A study of Homo sapiens with 8 samples.

Results

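The genes described here are 53 genes of the G1/S transition and of DNA replication, followed in human thyroid cancer cells in which the nuclear receptor NR1D1 was lowered or raised. They were taken by symbol from a fixed list, and 53 of 53 were found among the 58884 genes in the tables. NR1D1, also called REV-ERB alpha, is a heme-binding transcriptional repressor of the circadian clock. There were 8 RNA-seq libraries from 4 established lines, with 1 library per group. 8505C and CAL-62, both derived from anaplastic thyroid carcinoma, were transfected with an siRNA against NR1D1 or with a control siRNA. TPC-1, from papillary carcinoma, and FTC-133, from follicular carcinoma, were transfected with an NR1D1 expression vector or with an empty vector. The labels call the control cells wild type and give neither the siRNA sequences nor the vector promoter nor the hour of harvest. The siRNA and the vector were never used in the same line, so the approach and the line cannot be told apart. No group had a replicate library, so a difference within a line has no replicate check.

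DNA replication is prepared in G1, when the origin recognition complex, CDC6 and CDT1 load the MCM helicase onto chromatin, a step called licensing. Cyclin D and cyclin E kinases then inactivate RB proteins, which frees E2F factors to drive the genes of S phase. CDC45 and the GINS complex activate the helicase, the RPA trimer coats single strands, and primase, the replicative polymerases, the PCNA clamp and its RFC loader copy the template. Thyroid follicular cells rarely divide in the adult gland, whereas these carcinoma lines divide continuously. Bulk RNA levels do not tell a change in the share of cells in S phase from a change in RNA per cell.

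NR1D1 itself stood at 18.2 TPM (transcripts per 1000000) with the control siRNA and 11.2 TPM with the NR1D1 siRNA in 8505C, and at 21.97 and 10.1 TPM in CAL-62. With the empty vector and the NR1D1 vector it stood at 190 and 209 TPM in TPC-1 and at 105 and 137 TPM in FTC-133. Each treated library thus differed from its control in the labelled direction, but by less than 1.5-fold in both vector lines. Recovered library sizes ranged from 12.9 to 23.2 in units of 1000000 reads. Genes of the mitochondrial genome took 57.2% of TPM in the CAL-62 control library and 67.8% in its siRNA library, against 15.7% to 29.3% in the other 6 libraries. TPM are shares of a whole, so a larger mitochondrial share leaves less for the other genes. The median log2 ratio of all genes was -0.22 in CAL-62, or 0.04 with mitochondrial genes left out of the scaling, and lay between 0.00 and 0.03 in the other 3 lines. The summed level of the thyroid markers ran from 96.4 to 367 TPM over the 8 libraries, but TG and SLC5A5, which mark the differentiated follicular cell, stayed below 1 TPM in each of them. Of the immune markers, PTPRC reached at most 0.056 TPM, whereas CD14 reached 85.2 TPM and made up nearly all of that list's highest sum. The summed fibroblast markers ran from 0.318 to 79.0 TPM, the immune markers from 0.207 to 85.7 TPM and the endothelial markers from 0.441 to 145 TPM, and their part in the results was not tested.

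A promoter feature was more frequent among these genes than among all promoters, but was not common to all of them. The words TTTCCCGC, TTTCGCGC, TTTGCCGC and TTTGGCGC, which fit the E2F consensus, were searched on both strands from 250 bases before to 50 bases after the start of each gene in RefSeq (GRCh38.p14). Promoters were on hand for 42 of the 53 genes, and 23 of these (54.8%) held at least 1 word, against 908 of 27305 promoters in all (3.33%). The words can overlap one another, and a match says only that the letters are there. A CCAAT box, the letters CCAAT on either strand, was in 24 of the 42 promoters (57.1%, against 35.7% of all). The E-box CACGTG was in 5 of them (11.9%, against 7.43% of all). The letters AGGTCA, the receptor half-site bound by NR1D1 and related receptors, were also in 5 (11.9%, against 13.9% of all).

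The stretches of 60 bases below are shown because they hold the E2F words of genes with wide differences in a line or between control libraries, and of MCM6 and PCNA as members of the helicase ring and the clamp. They are written 5′ to 3′ on the strand of the gene, with the words in capitals. They lie at chr16:88803728-88803787 on the plus strand for the licensing factor CDT1 and at chr16:85688955-85689014 on the minus strand for the GINS subunit GINS2. The MCM6 stretch, at chr2:135876498-135876557 on the minus strand, holds 2 overlapping words, and the E2F1 stretch, at chr20:33686386-33686445 on the minus strand, holds 2 separate ones. The others are at chr20:5126648-5126707 on the minus strand for PCNA, chr12:132687343-132687402 on the minus strand for POLE, chr18:657588-657647 on the plus strand for TYMS, chr3:48188428-48188487 on the minus strand for CDC25A, chr1:23531242-23531301 on the minus strand for E2F2 and chr1:212035688-212035747 on the plus strand for DTL.
CDT1: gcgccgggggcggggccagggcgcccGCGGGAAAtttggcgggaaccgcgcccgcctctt
GINS2: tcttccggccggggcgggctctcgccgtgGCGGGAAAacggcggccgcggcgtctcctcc
MCM6: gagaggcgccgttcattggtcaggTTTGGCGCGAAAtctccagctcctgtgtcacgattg
PCNA: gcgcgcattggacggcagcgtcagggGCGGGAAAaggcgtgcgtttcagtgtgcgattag
POLE: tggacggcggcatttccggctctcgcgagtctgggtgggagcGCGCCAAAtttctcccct
TYMS: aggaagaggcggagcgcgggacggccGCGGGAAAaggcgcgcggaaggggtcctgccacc
CDC25A: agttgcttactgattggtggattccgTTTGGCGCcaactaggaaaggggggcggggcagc
E2F1: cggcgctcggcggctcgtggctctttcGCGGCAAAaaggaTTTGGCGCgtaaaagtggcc
E2F2: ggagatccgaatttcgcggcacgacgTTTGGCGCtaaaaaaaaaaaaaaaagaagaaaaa
DTL: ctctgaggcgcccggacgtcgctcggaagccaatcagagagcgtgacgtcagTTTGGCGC
The words of DTL, POLE, GINS2, E2F1 and CDT1 begin 8, 18, 31, 33 and 35 bases before the annotated start. Those of TYMS, E2F2, CDC25A and PCNA begin 39, 42, 44 and 59 bases before it, and the first word of MCM6 begins 90 bases before it. Among the genes whose window held none of the 4 words were TK1, CCNE1, RRM2, POLD1 and RPA1, several of which show wide differences below. The median log2 ratio of the 23 genes with a word and of the 19 without was 0.50 and 0.26 in 8505C, -0.44 and -0.55 in CAL-62, -0.37 and -0.30 in TPC-1, and -0.03 and 0.11 in FTC-133. The medians of both sets had the same sign in each line but FTC-133.

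In the control libraries, TPC-1 held the highest level for 42 of the 53 genes (79.2%), against 37.9% of all 17595 genes tested. FTC-133 was highest for 9, 8505C for POLA1 and CAL-62 for the licensing inhibitor GMNN. The TPC-1 share was 66.0% when columns were scaled by a trimmed mean and 62.3% when mitochondrial genes were left out of the scaling, against 26.9% of all genes in both. The summed level of the 53 genes in the control libraries was 3983 TPM in TPC-1, 2433 in FTC-133, 1711 in 8505C and 1589 in CAL-62. Without mitochondrial genes in the scaling these sums were 4821, 2943, 2419 and 3715 TPM, so CAL-62 then came second and TPC-1 stayed highest. The controls had received an siRNA in 8505C and CAL-62 and a vector in TPC-1 and FTC-133, so the line and the agent cannot be told apart. These levels were not tested, and each line had 1 control library.

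The spread between lines was much like that of genes at large. With 1 TPM added to each level, the highest control level was a median 3.66 times the lowest for the 53 genes. For all genes tested it was 3.36 times the lowest. On this scale 8 of the 53 (15.1%) stayed within 2-fold, against 15.8% of all. As plain TPM ratios, the widest spreads belonged to E2F2, an activator E2F, at 12.9-fold, and to DTL at 11.9-fold. The lowest E2F2 level, 0.677 TPM in FTC-133, rested on 16 reads. DTL is the substrate receptor of the ubiquitin ligase that destroys CDT1 in S phase. DTL stood at 8.47 TPM in 8505C, 11.8 in CAL-62, 16.9 in FTC-133 and 101 in TPC-1, so that TPC-1 stood apart from the other 3 lines. The helicase subunit MCM5 spanned 9.31-fold and CDT1 8.49-fold. The narrowest spreads were 1.49-fold for GMNN, 1.499-fold for the polymerase delta subunit POLD3, 1.67-fold for MCM3 and 1.79-fold for PCNA.

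**Figure D1:**
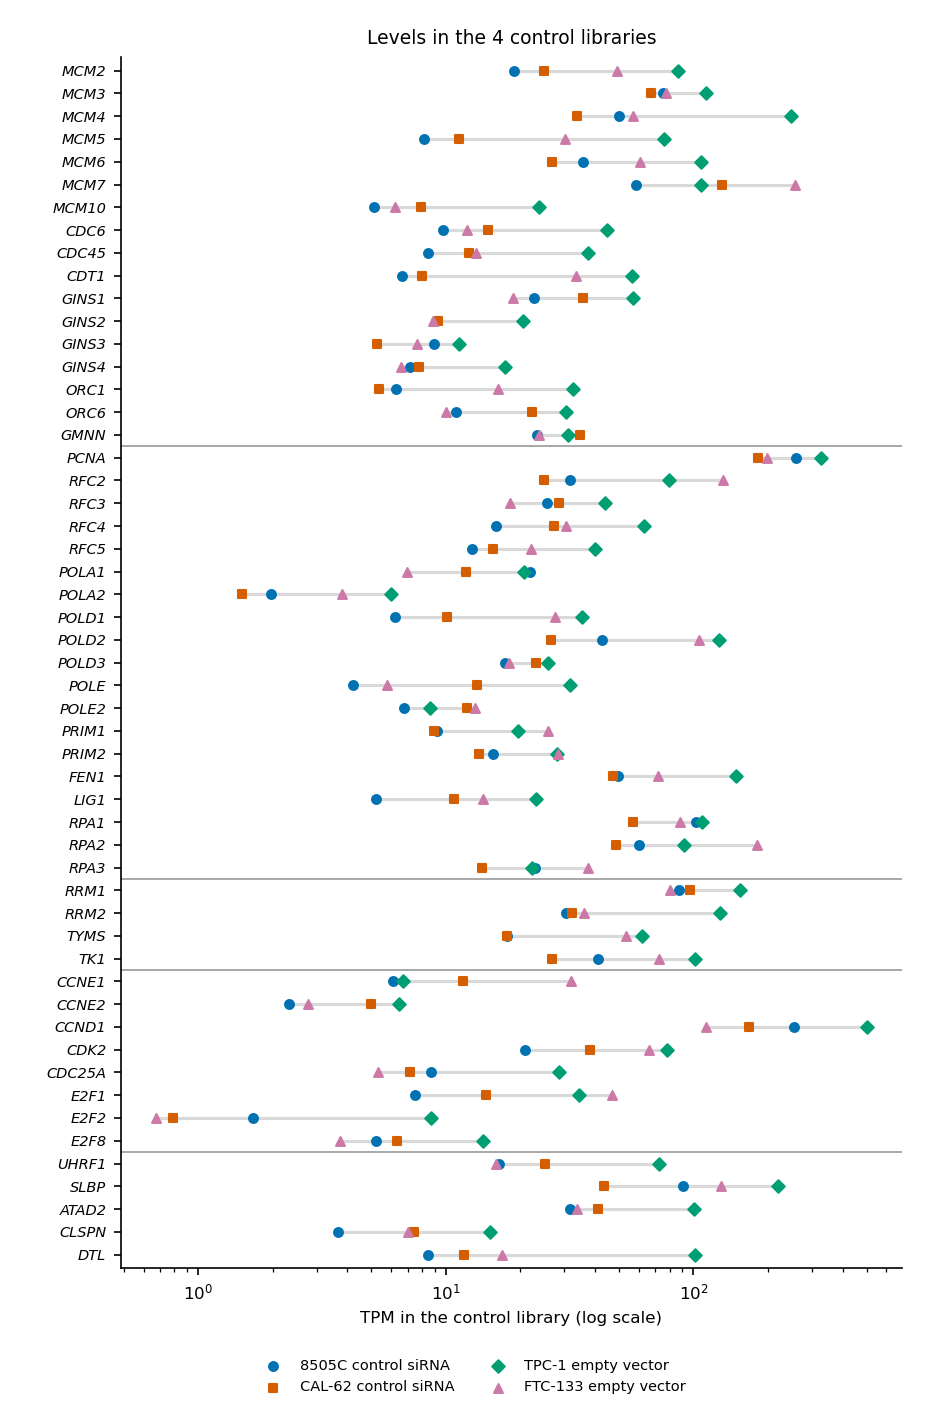
Control levels of the 53 genes. Each row is a gene, each point the TPM (log scale) in the control library of 1 line, and the grey bar joins the lowest to the highest; horizontal lines separate the groups by role. TPC-1 is rightmost for 42 of the 53 genes, and GMNN has the shortest bar.

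After the NR1D1 siRNA most of the 53 genes lay above control in 8505C and below it in CAL-62. In 8505C, 39 were higher (against 51.9% of all genes) and 14 lower (against 44.5%) in the treated library. Their median log2 ratio was 0.41, against 0.03 for all genes. In CAL-62, 6 were higher (against 31.6% of all genes) and 47 lower (against 64.5%). The median there was -0.52, against -0.22 for all genes. A log2 ratio here is the difference in log2(TPM + 1) between the treated and the control library, which understates the change of genes with few transcripts. Counted at 1.5-fold and without a test, 16 of the 53 genes were higher in 8505C, against 21.9% of all genes (higher), and 4 were lower, against 13.1% of all genes (lower). In CAL-62 none of the 53 was 1.5-fold higher, against 9.46% of all genes, and 19 were 1.5-fold lower, against 26.4%. With trimmed mean scaling 11 of the 53 were 1.5-fold lower in CAL-62 (16.9% of all genes) and 1 was higher (14.9%). Without mitochondrial genes 8 were lower (13.6%) and 3 higher (21.4%). In 8505C 14 and 16 were 1.5-fold higher under these scalings, against 19.6% and 23.0% of all genes.

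How far CAL-62 stood below its control depended on the scaling. The 53 genes had a median of -0.30 with trimmed mean scaling, when 12 of them were higher (against 44.0% of all genes). Without mitochondrial genes their median was -0.17 and 21 were higher (against 52.1%). Relative to the median of all genes, which moved with the scaling from -0.22 to -0.03 and 0.04, the median of the 53 was -0.30, -0.27 and -0.21. The filter mattered too. With a mean of at least 5 TPM the CAL-62 median was -0.54 for the 50 genes kept and -0.35 for all genes. In 8505C 39 genes were higher under each of the 3 scalings. The log2 ratio was larger in 8505C than in CAL-62 for 50 of the 53 genes (94.3%), against 70.9% of all genes. It was larger for 49 (92.5%, against 53.8%) with trimmed mean scaling and for 46 (86.8%, against 49.0%) without mitochondrial genes.

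In the vector lines, TPC-1 had 3 of the 53 genes higher (against 44.6% of all genes) and 50 lower (against 50.5%). The median log2 ratio of the 53 was -0.32, against 0.00 for all genes. None was 1.5-fold higher, against 12.1% of all genes, and 10 (18.9%) were 1.5-fold lower, against 11.8%. Without mitochondrial genes in the scaling 9 were higher (against 49.0% of all genes) and the median was -0.29. FTC-133 showed no common direction, with 26 genes higher (against 52.6% of all genes) and 27 lower (against 43.3%). The median there was -0.03 against 0.03. There, 4 genes (7.55%) were 1.5-fold higher, against 16.9% of all genes, and 4 were 1.5-fold lower, against 12.6%, so fewer of the 53 passed 1.5-fold than of genes at large.

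**Figure D2:**
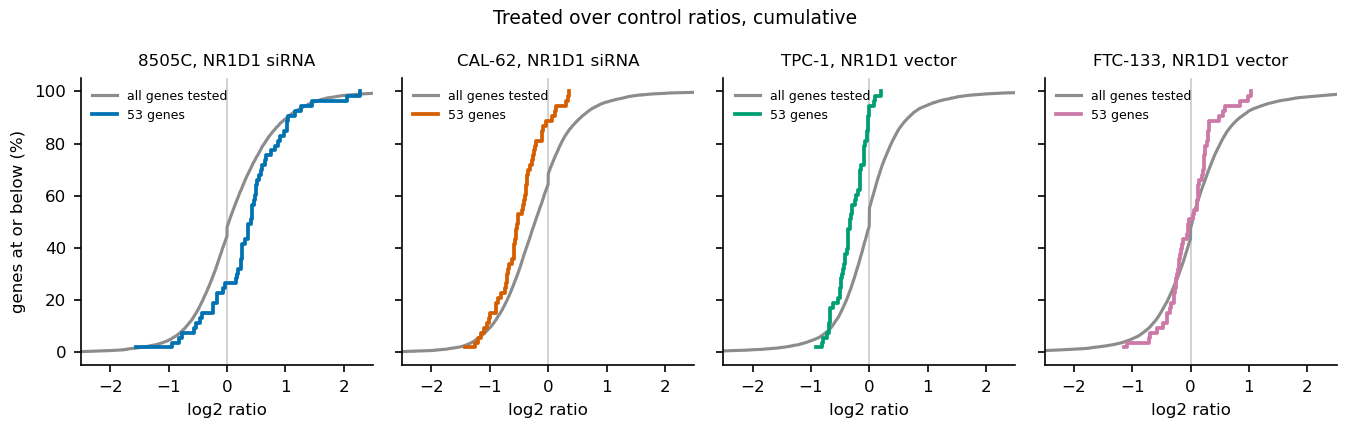
Cumulative distribution of the log2 ratio, treated over control, in each line. The coloured steps are the 53 genes, the grey curve the 17595 genes tested, and the vertical line marks no difference. The coloured steps lie right of the grey curve in 8505C (median 0.41 against 0.03) and left of it in TPC-1 (-0.32 against 0.00) and CAL-62 (-0.52 against -0.22).

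Tests over the lines called none of the genes. In limma, with each line as a pair, 0 of the 53 passed an adjusted p of 0.05 after the siRNA, where 0% of all 17595 genes passed and the smallest adjusted p among the 53 was 0.29. At an unadjusted p under 0.05 there were 6 of the 53 (11.3%), against 12% of all genes. With the vector 0 of the 53 passed, where 0% of all genes passed, and 0 reached an unadjusted p under 0.05, against 4.46% of all genes. In the 4-line comparison, which sets the library with more NR1D1 by label against the one with less, 0 of the 53 passed (0% of all genes), 0 reached an unadjusted p under 0.05 (4.09% of all genes), and the smallest adjusted p was 0.938. These p-values set a mean against the spread between lines, with 2 or 3 residual degrees of freedom. The siRNA and vector means came from the same fit over all 8 libraries. The spread behind the siRNA p-values therefore also held the difference between the vector lines, and the reverse. The fit drew each gene's spread toward a trend over all genes, so the p-values do not rest on that gene's spread alone. With the filter raised to a mean of at least 5 TPM, limma called 77 of 11174 genes after the siRNA and 7 with the vector, and 0 of the 50 replication genes then tested.

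The 6 genes at an unadjusted p under 0.05 after the siRNA (11.3%, against 12% of all genes) were lower in both lines. They were the helicase subunit MCM5 at -0.71 (limma, adjusted p = 0.39), the GINS subunit GINS3 at -0.74 (0.41), POLD3 at -0.87 with a standard error of 0.26 (0.315), the single-strand binding proteins RPA1 at -0.99 with a standard error of 0.27 (0.29) and RPA3 at -0.99 with a standard error of 0.31 (0.329), and cyclin E1, CCNE1, at -1.12 with a standard error of 0.33 (0.302), each a mean log2 ratio over the pair of lines. Opposite signs widen the spread that such a mean is set against, so genes at this cut tend to share a direction. Unlike ratios in the vector lines widen it too. CDC25A had log2 ratios of -0.82 and -1.15 in the siRNA lines, and of -0.79 and 0.98 in the vector lines. Its siRNA mean of -0.98 had a standard error of 0.45 and missed the cut (limma, unadjusted p = 0.067). Among all genes at this cut, 1323 of 2114 were lower. Over all 53 genes the mean log2 ratio had a median of -0.04, with 25 higher and 28 lower. It had a median of 0.05 with trimmed mean scaling (31 higher) and of 0.15 without mitochondrial genes (37 higher). With the vector its median was -0.20, with 12 higher and 41 lower.

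**Figure D3:**
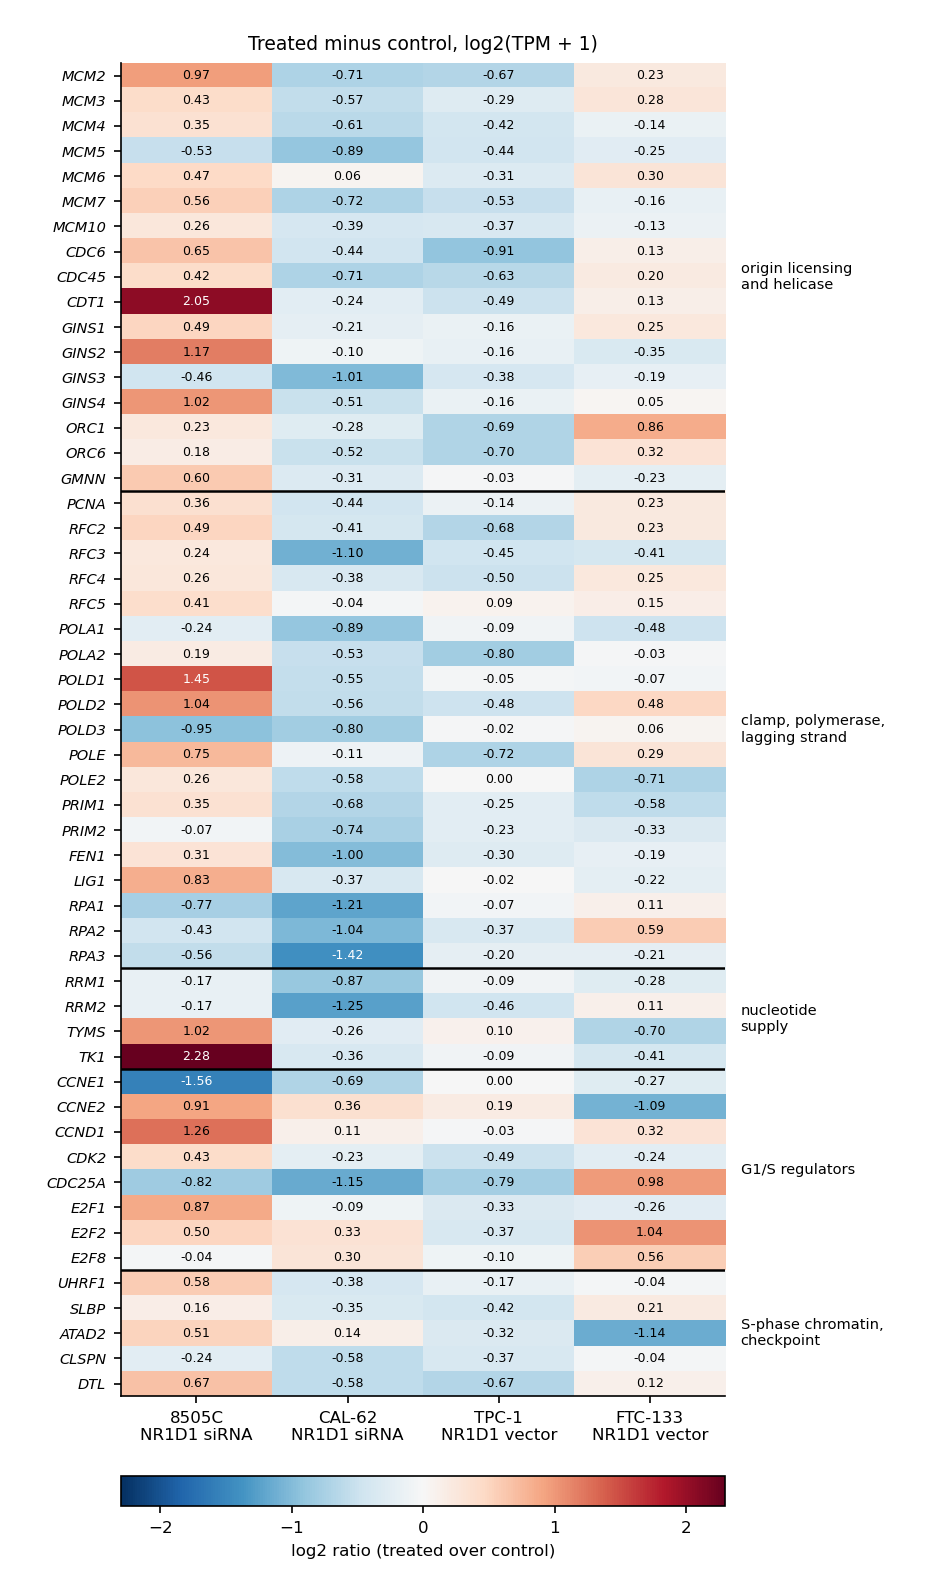
Log2 ratio of each of the 53 genes in each line, treated minus control in log2(TPM + 1). Red cells are higher and blue cells lower in the treated library, and black lines separate the groups by role. The 8505C column is mostly red with TK1 (2.28) and CDT1 (2.05) darkest, the TPC-1 column is blue for 50 of 53 genes, and FTC-133 is mixed.

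The 17 genes of origin licensing and the helicase had a median log2 ratio of 0.47 in 8505C, -0.51 in CAL-62, -0.42 in TPC-1 and 0.13 in FTC-133. In TPC-1 17 of the 17 were lower in the vector library, under each of the 3 scalings for all but GMNN, against 50.5% of all genes. In 8505C 15 were higher, against 51.9% of all genes. In CAL-62 16 were lower (64.5% of all genes), 14 with trimmed mean scaling (52.1%) and 11 without mitochondrial genes (43.8%).

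CDT1, which brings the MCM ring to the origin, stood at 6.63 TPM in the control and 30.6 TPM in the siRNA library of 8505C, and at 8.02 and 6.63 TPM in CAL-62. Its levels were 56.3 and 39.9 TPM in TPC-1 and 33.4 and 36.7 TPM in FTC-133, empty vector first. The 8505C ratio was 4.62 (exact 95% interval 3.71 to 5.81, from 95 and 526 reads), the second largest of the 53 genes. Such intervals cover counting error only, and reads are not independent molecules. The 8505C control level lay at the low end of the 8 libraries, and the treated level still stood below both FTC-133 libraries. In CAL-62 the CDT1 log2 ratio was -0.24 and reached 0.13 without mitochondrial genes, so it had no firm direction.

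GMNN encodes geminin, which binds CDT1 and blocks a second licensing in the same cycle. It stood at 23.3 and 35.7 TPM in 8505C, 34.7 and 27.8 TPM in CAL-62, 31.1 and 30.5 TPM in TPC-1 and 23.7 and 20.1 TPM in FTC-133, control first. Its 8 levels thus kept within a narrow band while CDT1 ranged widely. The log2 ratio of GMNN in 8505C was 0.60, against 2.05 for CDT1, and its direction in CAL-62 and TPC-1 changed with the scaling.

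CDC6, the ATPase that joins CDT1 at the origin, stood at 9.77 and 15.9 TPM in 8505C, 14.8 and 10.7 in CAL-62, 44.6 and 23.2 in TPC-1, and 12.1 and 13.4 in FTC-133. Its difference of -0.91 in log2(TPM + 1) was the lowest of the 53 genes in TPC-1. The plain ratio was 0.520 (exact 95% interval 0.476 to 0.568), against 0.502 for the less abundant POLA2. Even so, the TPC-1 vector library remained above the other 6 libraries. The origin recognition subunit ORC1 stood at 6.31 and 7.60 TPM in 8505C, 5.35 and 4.22 in CAL-62, 32.5 and 19.7 in TPC-1, and 16.2 and 30.1 in FTC-133. Its vector lines went opposite ways, with log2 ratios of -0.69 and 0.86, which left their treated libraries nearer to each other than their controls. ORC6, another subunit of that complex, stood at 11.02 and 12.6 TPM in 8505C, 22.4 and 15.3 in CAL-62, 30.5 and 18.4 in TPC-1, and 10.02 and 12.7 in FTC-133. It too was lower in the TPC-1 vector library (-0.70) and higher in that of FTC-133 (0.32).

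Of the helicase ring itself, MCM2 stood at 18.9 and 37.9 TPM in 8505C, 24.9 and 14.8 in CAL-62, 86.4 and 53.9 in TPC-1, and 49.2 and 57.8 in FTC-133. The 8505C ratio was 2.01 and the CAL-62 ratio 0.595, with exact 95% intervals of 1.78 to 2.26 and 0.529 to 0.669. MCM5 stood at 8.13 and 5.32 TPM in 8505C, 11.3 and 5.62 in CAL-62, 75.7 and 55.6 in TPC-1, and 30.1 and 25.1 in FTC-133. It was lower in the treated library of all 4 lines, whereas MCM2 was higher in 8505C and FTC-133, although both belong to the same hexamer. The other 4 ring subunits, MCM3, MCM4, MCM6 and MCM7, ran from 0.35 to 0.56 in 8505C, so MCM5 was the only one of the 6 below its control there (-0.53). In CAL-62 those 4 lay between -0.72 and 0.06, in TPC-1 between -0.53 and -0.29, and in FTC-133 between -0.16 and 0.30.

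GINS2, a subunit of the complex that joins CDC45 to the ring, stood at 9.14 and 21.8 TPM in 8505C, 9.25 and 8.55 in CAL-62, 20.4 and 18.1 in TPC-1, and 8.82 and 6.72 in FTC-133. Its 8505C ratio was 2.39 (exact 95% interval 1.95 to 2.94), while the intervals in the other 3 lines included 1. The 4 GINS subunits differed among themselves in 8505C, with log2 ratios of 0.49 for GINS1, 1.17 for GINS2, -0.46 for GINS3 and 1.02 for GINS4. GINS4 shares 21.2% and GINS3 10.9% of their exon bases with an antisense transcript, and the strand setting of the counting was not given. Of the remaining licensing genes, CDC45 and MCM10 had log2 ratios of 0.42 and 0.26 in 8505C, -0.71 and -0.39 in CAL-62, -0.63 and -0.37 in TPC-1, and 0.20 and -0.13 in FTC-133.

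The 19 genes of the clamp, the polymerases and the lagging strand had a median log2 ratio of 0.26 in 8505C, -0.58 in CAL-62, -0.23 in TPC-1 and -0.03 in FTC-133. In CAL-62 19 of the 19 were lower in the siRNA library, 17 with trimmed mean scaling and 15 without mitochondrial genes, where 64.5%, 52.1% and 43.8% of all genes were lower. In TPC-1 18 of the 19 were lower, against 50.5% of all genes, of which POLD3, POLE2 and LIG1 changed sign with the scaling.

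PCNA, the sliding clamp, stood at 259 and 332 TPM in 8505C, 183 and 134 in CAL-62, 327 and 296 in TPC-1, and 199 and 233 in FTC-133. None of the 4 ratios reached 1.5-fold. RFC3, a subunit of the clamp loader, stood at 25.5 and 30.4 TPM in 8505C, 28.5 and 12.7 in CAL-62, 43.9 and 31.9 in TPC-1, and 18.2 and 13.4 in FTC-133. Its CAL-62 ratio of 0.447 (exact 95% interval 0.381 to 0.524) was the lowest of the loader subunits RFC2 to RFC5, of which RFC5 had a ratio of 0.973 in the same line. RFC5 was also the single gene of the 53 that was higher in both vector libraries, at log2 ratios of 0.09 and 0.15.

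Polymerase delta, which with PCNA copies the lagging strand, showed its subunits apart in 8505C. POLD1, the catalytic subunit, stood at 6.25 and 18.8 TPM in 8505C, 10.1 and 6.55 in CAL-62, 35.3 and 34.2 in TPC-1, and 27.6 and 26.4 in FTC-133. Its 8505C ratio was 3.02 (exact 95% interval 2.48 to 3.68) and that of the accessory subunit POLD2 was 2.08, whereas that of POLD3 was 0.490. POLD3 stood at 17.3 and 8.47 TPM in 8505C, 23.1 and 12.8 in CAL-62, 25.9 and 25.5 in TPC-1, and 17.9 and 18.7 in FTC-133. Its siRNA lines were both at least 1.5-fold lower, and its vector lines had ratios of 0.983 and 1.04.

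POLE, the leading strand polymerase, stood at 4.21 and 7.76 TPM in 8505C, 13.3 and 12.3 in CAL-62, 31.8 and 19.0 in TPC-1, and 5.77 and 7.28 in FTC-133. It was lower in the TPC-1 vector library (ratio 0.596, exact 95% interval 0.563 to 0.632) and higher in that of FTC-133 (1.26, 1.11 to 1.44). Its partner POLE2 stood at 6.74 and 8.29 TPM in 8505C, 12.2 and 7.81 in CAL-62, 8.66 and 8.64 in TPC-1, and 13.1 and 7.65 in FTC-133. POLE2 did not follow POLE in the vector lines, with a ratio of 0.998 in TPC-1 (exact 95% interval 0.791 to 1.26) and 0.582 in FTC-133. POLA2, the accessory subunit of the primer-making polymerase, stood at 1.96 and 2.37 TPM in 8505C, 1.5 and 0.737 in CAL-62, 5.97 and 2.996 in TPC-1, and 3.82 and 3.71 in FTC-133. These are among the lowest levels of the 53 genes, resting on 25 to 201 reads, and 35.1% of POLA2 exon bases are shared with an overlapping gene model.

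The 3 subunits of RPA, the trimer that coats single-stranded DNA, were lower in the siRNA library of both lines. RPA1 stood at 103 and 59.8 TPM in 8505C, 56.8 and 24.0 in CAL-62, 108 and 103 in TPC-1, and 88.6 and 95.6 in FTC-133. RPA2 stood at 60.2 and 44.4 TPM in 8505C, 48.8 and 23.2 in CAL-62, 91.3 and 70.5 in TPC-1, and 181 and 273 in FTC-133. RPA3 stood at 22.8 and 15.2 TPM in 8505C, 13.96 and 4.603 in CAL-62, 22.2 and 19.2 in TPC-1, and 37.6 and 32.5 in FTC-133. The ratios of the 3 subunits were 0.584, 0.737 and 0.665 in 8505C and 0.422, 0.476 and 0.330 in CAL-62, and in CAL-62 the log2 ratios stayed at or below -0.82, -0.65 and -1.13 under each scaling. In TPC-1 the 3 subunits were lower with the vector, at log2 ratios of -0.07, -0.37 and -0.20, while in FTC-133 they parted, at 0.11, 0.59 and -0.21, and RPA2 was 1.51-fold higher there (exact 95% interval 1.41 to 1.61). The other 9 genes of this role, RFC2, RFC4, RFC5, POLA1, POLD2, PRIM1, PRIM2, FEN1 and LIG1, lay between -0.24 and 1.04 in 8505C and in CAL-62 ran from -0.04 for RFC5 to -0.999 for FEN1. FEN1, the flap nuclease of Okazaki fragments, and the ligase LIG1 had log2 ratios of 0.31 and 0.83 in 8505C, -0.30 and -0.02 in TPC-1, and -0.19 and -0.22 in FTC-133.

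**Figure D4:**
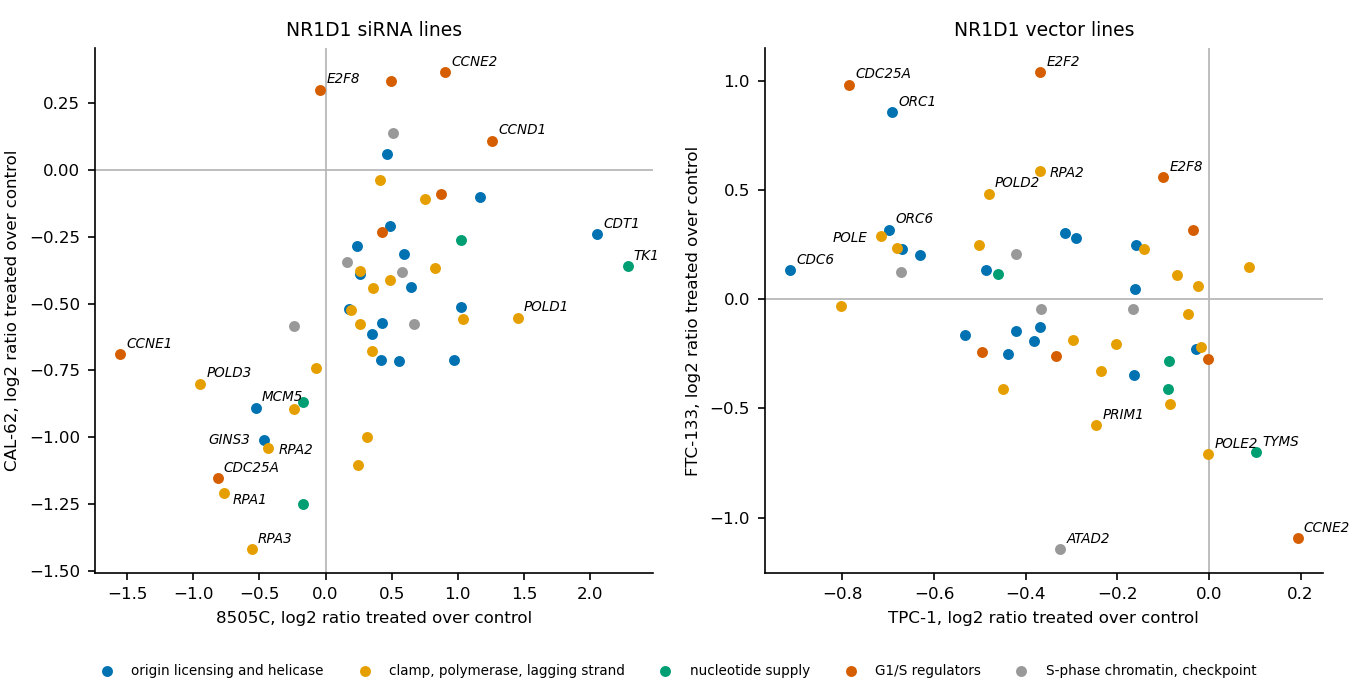
Log2 ratios of the 53 genes in the siRNA lines (left, 8505C against CAL-62) and in the vector lines (right, TPC-1 against FTC-133). Each point is a gene coloured by role, and grey lines mark no difference. In the left panel 34 genes fall in the lower right corner; in the right panel CDC25A, E2F2 and ORC1 lie high on the left and CCNE2 low on the right.

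Of the 4 genes of nucleotide supply, TK1, the thymidine salvage kinase, had the largest ratio of the 53 genes in any line. It stood at 41.2 and 204 TPM in 8505C, 26.7 and 20.6 in CAL-62, 102 and 95.5 in TPC-1, and 72.2 and 54.1 in FTC-133. The siRNA library of 8505C was thus the highest of the 8, at 4.96 times its control (exact 95% interval 4.41 to 5.59, from 331 and 1956 reads). TYMS, which makes thymidylate from deoxyuridylate, stood at 17.7 and 37.0 TPM in 8505C, 17.7 and 14.5 in CAL-62, 61.7 and 66.3 in TPC-1, and 53.6 and 32.6 in FTC-133. Both thymidine genes were therefore higher in 8505C and lower in FTC-133, and the CAL-62 direction of both changed with the scaling. TYMS shares 39.2% of its exon bases with ENOSF1 on the other strand.

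RRM2, the regulated subunit of ribonucleotide reductase, did not follow them. It stood at 30.6 and 27.0 TPM in 8505C, 32.2 and 12.96 in CAL-62, 128 and 92.6 in TPC-1, and 36.0 and 39.1 in FTC-133. Its CAL-62 ratio was 0.402 (exact 95% interval 0.359 to 0.451), and its log2 ratio there stayed at or below -0.88 under each scaling. The large subunit RRM1 had log2 ratios of -0.17 and -0.87 in the siRNA lines 8505C and CAL-62, and of -0.09 and -0.28 in the vector lines TPC-1 and FTC-133. In 8505C, then, both reductase subunits sat slightly below control while the thymidine enzymes were at least 2-fold above it.

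The 8 regulators of the G1/S switch had the widest range of the 5 roles in each line. In 8505C their log2 ratios lay between -1.56 and 1.26, in CAL-62 between -1.15 and 0.36, in TPC-1 between -0.79 and 0.19, and in FTC-133 between -1.09 and 1.04. Of the 6 genes that were higher in CAL-62, 4 were regulators, namely CCNE2, CCND1, E2F2 and E2F8, beside MCM6 and ATAD2. These 6 were higher in CAL-62 under each of the 3 scalings.

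CCND1, cyclin D1, stood at 255 and 612 TPM in 8505C, 168 and 181 in CAL-62, 500 and 489 in TPC-1, and 113 and 140 in FTC-133. The siRNA library of 8505C was the highest of the 8, at 2.40 times its control (exact 95% interval 2.33 to 2.48). The cyclins that act after it went apart. CCNE1 stood at 6.12 and 1.42 TPM in 8505C, 11.7 and 6.88 in CAL-62, 6.72 and 6.71 in TPC-1, and 32.1 and 26.4 in FTC-133. Its 8505C ratio of 0.232 was the lowest of the 53 genes in that line, but it rested on 67 and 19 reads and its exact 95% interval ran from 0.132 to 0.392. CCNE2 stood at 2.32 and 5.22 TPM in 8505C, 4.97 and 6.69 in CAL-62, 6.48 and 7.55 in TPC-1, and 2.78 and 0.773 in FTC-133. The paralogs, which activate the same kinase, thus had opposite signs in both siRNA lines. The FTC-133 vector library held only 14 reads of CCNE2, and 37.1% of its exon bases are shared with INTS8, whose mean level was 32.5 TPM.

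CDK2, the kinase of both E cyclins, stood at 20.8 and 28.4 TPM in 8505C, 38.3 and 32.5 in CAL-62, 78.3 and 55.3 in TPC-1, and 66.0 and 55.6 in FTC-133. It passed 1.5-fold in no line. CDC25A, the phosphatase that activates it, stood at 8.67 and 4.49 TPM in 8505C, 7.13 and 2.66 in CAL-62, 28.7 and 16.2 in TPC-1, and 5.33 and 11.5 in FTC-133. CDC25A was at least 1.5-fold lower in 3 lines and 2.16-fold higher in FTC-133 (exact 95% interval 1.68 to 2.79). It was among the 6 largest log2 ratios of the 53 genes in CAL-62, TPC-1 and FTC-133.

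E2F1, an activator of S-phase genes, stood at 7.49 and 14.5 TPM in 8505C, 14.5 and 13.5 in CAL-62, 34.4 and 27.1 in TPC-1, and 46.9 and 38.9 in FTC-133. Its 8505C ratio was 1.94 (exact 95% interval 1.49 to 2.55), and both treated vector libraries were below their controls. E2F2 stood at 1.65 and 2.74 TPM in 8505C, 0.790 and 1.25 in CAL-62, 8.74 and 6.54 in TPC-1, and 0.677 and 2.45 in FTC-133. The FTC-133 ratio of 3.62 rested on 16 and 55 reads and had an exact 95% interval of 2.04 to 6.76. E2F8, an atypical E2F that represses, had log2 ratios of -0.04 and 0.30 in the siRNA lines and -0.10 and 0.56 in the vector lines. It was the single gene of the 53 that was lower in 8505C and higher in CAL-62.

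Among the 5 genes of S-phase chromatin, checkpoint and turnover, UHRF1, which carries DNA methylation through replication, stood at 16.3 and 24.9 TPM in 8505C, 25.03 and 18.98 in CAL-62, 72.6 and 64.6 in TPC-1, and 15.9 and 15.4 in FTC-133. Its ratio was 1.53 in 8505C and 0.969 in FTC-133. ATAD2, a chromatin ATPase with a bromodomain, stood at 31.8 and 45.6 TPM in 8505C, 41.0 and 45.3 in CAL-62, 100.5 and 80.0 in TPC-1, and 33.7 and 14.7 in FTC-133. Its FTC-133 difference of -1.14 in log2(TPM + 1) was the lowest of the 53 genes there. The plain ratio was 0.437 (exact 95% interval 0.389 to 0.489), while that of the scarce CCNE2 was 0.278. DTL had log2 ratios of 0.67 and -0.58 in the siRNA lines and -0.67 and 0.12 in the vector lines. SLBP, which binds the stem-loop of histone mRNA, had ratios between 0.746 in TPC-1 and 1.16 in FTC-133. CLSPN, the adaptor of the replication checkpoint, was lowest against its control in CAL-62, at 7.42 and 4.62 TPM.

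Compared by sign over the siRNA lines, 34 of the 53 genes (64.2%) were higher in 8505C and lower in CAL-62, against 27.5% of all genes. With trimmed mean scaling they numbered 28 (52.8%, against 17.9%) and without mitochondrial genes 19 (35.8%, against 15.3%). A further 13 (24.5%, against 35.7% of all genes) were lower in both. The same 13 were lower in both with trimmed mean scaling (against 33.1%) and without mitochondrial genes (against 27.5%). These were MCM5, GINS3, POLA1, POLD3, PRIM2, RPA1, RPA2, RPA3, RRM1, RRM2, CCNE1, CDC25A and CLSPN. Of them, POLD3, RPA1, CCNE1 and CDC25A were at least 1.5-fold lower in both lines on log2(TPM + 1), which is 7.55% of the 53 genes against 7.10% of all genes. With trimmed mean scaling these were MCM5, RPA1, RPA3 and CDC25A, and without mitochondrial genes RPA1 and CDC25A, so that those last 2 passed under each scaling. The log2 ratios of the 53 genes in 8505C and CAL-62 correlated across genes with a Pearson r of 0.53 and a Spearman rho of 0.61, against a Pearson r of 0.35 over all genes. Genes are not independent replicates, and the points of a line share its libraries. The genes that stood highest in 8505C thus tended to be those least lowered in CAL-62, even where the signs differed.

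In the vector lines 25 of the 53 genes (47.2%) were lower in both, against 20.2% of all genes. With trimmed mean scaling 27 were lower in both (against 22.3% of all genes) and without mitochondrial genes 21 (against 19.0%). The order of the genes nonetheless ran opposite. The log2 ratios of TPC-1 and FTC-133 had a Pearson r of -0.46 and a Spearman rho of -0.44 across the 53 genes, against a Pearson r of -0.01 over all genes. CDC25A, ORC1, ORC6, POLE and CDC6 were among the lowest in TPC-1 and were above their control in FTC-133, whereas CCNE2 and TYMS were above control in TPC-1 and among the lowest in FTC-133. Counted on log2(TPM + 1), 12 genes (22.6%, against 26.3% of all genes) passed 1.5-fold in no line. They were MCM3, MCM6, MCM10, GINS1, PCNA, RFC4, RFC5, CDK2, E2F8, UHRF1, SLBP and CLSPN. By the plain TPM ratio 3 of these passed it in a line, with 1.60 for E2F8 in FTC-133, 1.53 for UHRF1 in 8505C and 0.623 for CLSPN in CAL-62.

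The summed level of the 53 genes was 1711 TPM in the control and 2566 TPM in the siRNA library of 8505C, and 1589 and 1144 TPM in CAL-62. It was 3983 and 3259 TPM in TPC-1 and 2433 and 2581 TPM in FTC-133, empty vector first. Without mitochondrial genes in the scaling the CAL-62 sums were 3715 and 3556 TPM, which lie closer together. Such sums weigh abundant genes such as CCND1 most.

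Neighbouring genes of the cell cycle were compared from 5 lists, and limma called 0 of their genes after the siRNA or with the vector, with a smallest adjusted p of 0.223. Among 20 other origin and fork genes the median log2 ratio was 0.12 in 8505C, -0.41 in CAL-62, -0.14 in TPC-1 and -0.32 in FTC-133. TICRR, which with TOPBP1 starts origin firing, had log2 ratios of 1.003, -0.31, -0.26 and 1.2 in the same order. POLE3, a histone-fold subunit of polymerase epsilon, had -0.57, -1.202, -0.62 and 0.52. The 18 other genes of nucleotide supply and chromatin assembly had medians of 0.63, -0.50, -0.12 and 0.11. There the dNTP hydrolase SAMHD1 had log2 ratios of 1.44, 0.66, -0.23 and 0.47, and RRM2B, the p53-regulated reductase subunit, had 1.08, 0.50, 0.42 and -0.95. Both were higher in CAL-62, unlike the reductase subunits RRM1 and RRM2.

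Upstream of the replication genes, 24 of the 25 listed cyclin-dependent kinase, inhibitor and RB family genes were tested, with medians of 0.26 and -0.53 in the siRNA lines and -0.03 and -0.28 in the vector lines, in the same order. SKP2, the receptor that targets p27 for destruction, had log2 ratios of -0.82, -1.31, 0.76 and 0.85, so its sign followed the NR1D1 label in 4 of 4 lines (limma, siRNA adjusted p = 0.286, vector adjusted p = 1). CDKN1B, which encodes p27, had -0.38, -1.02, 0.38 and -0.55. CDKN1A, which encodes p21, had 1.22, -0.27, 0.14 and -0.33, and RB1 had -0.19, -0.69, 0.05 and -1.04. MYC, which drives G1 exit, had -0.44, -1.48, -0.90 and 0.24. In 8505C the inhibitor CDKN1A was thus higher in the same library as CDT1, TK1 and CCND1.

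Of the 53 replication genes 39 were higher in 8505C, against 51.9% of all genes, with a median log2 ratio of 0.41. The G2/M genes went further there, with 24 of 24 tested higher and a median log2 ratio of 1.12. Their medians were -0.48 in CAL-62, 0.04 in TPC-1 and 0.08 in FTC-133. In CAL-62 1 of the 24 was higher, 9 with trimmed mean scaling and 11 without mitochondrial genes. The shares of all genes higher were 31.6%, 44.0% and 52.1%. The anaphase activator CDC20 had log2 ratios of 1.82, -0.78, -0.22 and 0.53, the topoisomerase TOP2A had 1.70, 0.15, 0.45 and -0.68, and the proliferation marker MKI67 had 0.45, -0.87, 0.42 and 0.13, in the order above. The 11 tested replication-dependent histone genes lay the other way. Their medians were -1.22 in 8505C, -1.08 in CAL-62, -0.46 in TPC-1 and -0.43 in FTC-133. In either siRNA line 0 of 11 were higher under any of the 3 scalings. Of all genes, 48.1% to 51.9% were higher in 8505C and 31.6% to 52.1% in CAL-62. The linker histone gene H1-2 had -1.46, -2.09, -0.18 and -1.27, and H2BC21 had -1.72, -1.80, -0.53 and -0.43. In 8505C, the 11 histone genes ran from -1.77 for H2AC6 to -0.08 for H4C3. H4C3 stood at 9.05 TPM in the control and 8.49 TPM in the siRNA library there. The listed histone genes thus lay below control in 8505C, by widely differing amounts, while most of the 53 replication genes lay above it. Most such histone mRNAs end in a stem-loop in place of poly(A), and the labels do not say whether poly(A) selection was used.

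**Figure D5:**
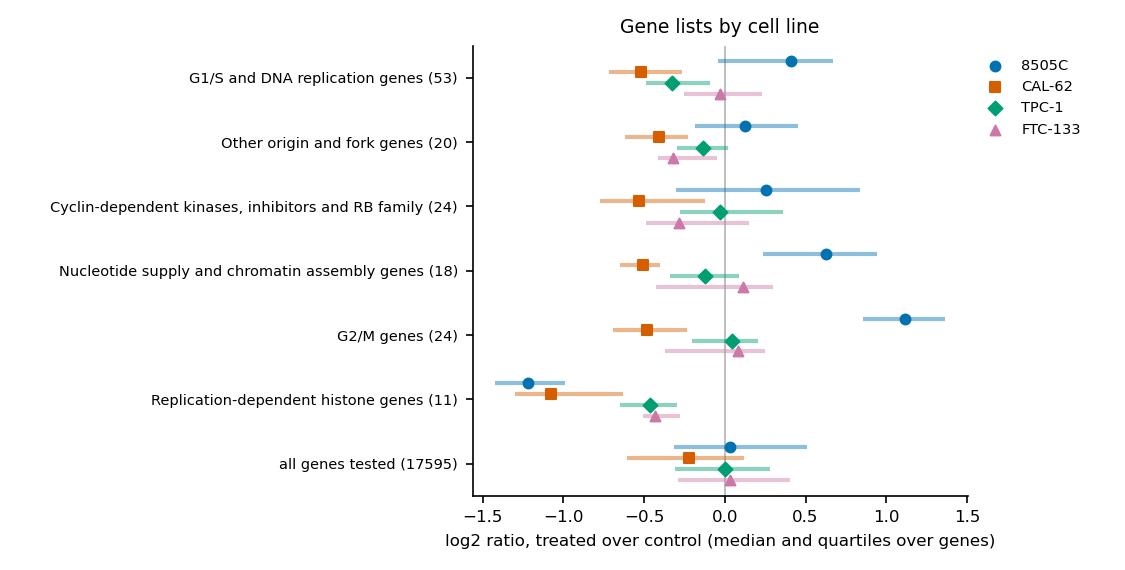
Median log2 ratio (points) and quartiles (bars) over the genes of each list in each line, with the number of genes tested in brackets. The 53 genes lie at 0.41 in 8505C, between the other origin and fork genes (0.12) and the G2/M genes (1.12), and the histone genes lie left of 0 in all 4 lines.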

How the data were processed

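The deposited tables gave 1 value per gene and library. Those of 8505C and CAL-62 held TPM, summing to 1000000 per column. Those of TPC-1 and FTC-133 were named TPM by the authors but summed to 253330 to 261469 and matched FPKM computed with GENCODE 29 exon lengths, so these deposited FPKM were rescaled to 1000000. The submitters' processing notes name Trimmomatic 0.38, featureCounts 2.0.0 and GRCh38. An aligner and a strand setting are not given in the sources used.

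The 17595 genes with a mean of at least 1 TPM over the 8 libraries, 53 of the 53 among them, were tested on log2(TPM + 1) with limma 3.58.1 in R 4.3.3. The fit had a term for cell line, which pairs the libraries. It drew each gene's variance toward a trend with mean level and used Benjamini-Hochberg adjustment over all genes at 0.05. Reads were recovered from values and exon lengths, with 72.2% to 74.6% of nonzero values whole within 0.02. They served for the library sizes, the read numbers given and the exact 95% intervals, not for the ratios or the limma tests. The fit was tested on simulated data. Genes are given with 8 values if they had one of the 6 largest absolute log2 ratios in a line or were landmarks of the list, and the other lists name the 2 genes with the largest mean absolute ratio and 5 landmarks. The genes and lists were chosen with earlier results of these data known. Alternatives covered the pseudocount, filter, fold, scaling (a mean trimmed by 30% at each tail, or without 37 mitochondrial genes), cell line term and each line left out. Promoters are from RefSeq (GRCh38.p14).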

Additional observations from a re-analysis of the deposited data

Results flagged for a closer look

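Under the NR1D1 siRNA the median log2 ratio of the 53 genes was 0.4108 in 8505C and -0.5209 in CAL-62. These medians drew attention because they have opposite signs under the same comparison. With 1 library per group the difference between the lines was not tested. The mitochondrial share of TPM was 57.2% in the control and 67.8% in the siRNA library of CAL-62, against 29.3% and 28.6% in 8505C. With mitochondrial genes left out of the scaling, the median was -0.17 in CAL-62 and 0.41 in 8505C.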

How the results depend on the processing

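The count of the 53 genes called by limma was 0 under every setting tried, including no replicate block (no cell line term) and without each cell line, where the approach keeps 1 pair that is assumed to vary like the other lines. The smallest adjusted p among the 53 after the siRNA lay between 0.154 and 1 over these settings. Over all genes, 77 were called after the siRNA and 7 with the vector with a filter of at least 5 TPM, against 0 and 0. The pairing of libraries comes from the shared cell line, and the fit without it called 0 of the 53 genes as well. In CAL-62, 1 gene was 1.5-fold higher with a pseudocount of 0.1 and 1 with trimmed mean scaling, and 3 without mitochondrial genes. There, 11 genes were 1.5-fold lower with trimmed mean scaling and 8 without mitochondrial genes, and the median was -0.2972 and -0.1688. At 2-fold, 8 genes were higher and 1 lower in 8505C, 7 lower in CAL-62, 0 lower in TPC-1, and 1 higher and 2 lower in FTC-133. The 2-fold counts and the count with a pseudocount of 0.1 have no share of all genes beside them. They are therefore not set against genes at large. The FTC-133 median changed sign, to 0.0022 with a filter of at least 5 TPM and to 0.0084 without the 11 genes that share at least 10% of their exon bases with other genes, when 2 were 1.5-fold lower. That last setting was chosen after seeing the data, and its count also has no share of all genes beside it. Among control libraries, trimmed mean scaling put 8505C highest for 2 genes (3.77%, against 21.6% of all genes) and CAL-62 for 5 (9.43%, against 24.6%). Scaling without mitochondrial genes put 8505C highest for 2 (3.77%, against 18.2%) and CAL-62 for 10 (18.9%, against 36.7%). Of the values recomputed, 98 kept their direction and stayed within 1.5 times (counts) or 0.1 (median log2 ratios) of the main value, 18 moved further and 2 reversed. The 98 include the limma counts, which were 0 under every setting and have no direction, so they say little about stability. Genes at few reads limit the ratios of CCNE1, CCNE2, E2F2 and POLA2, and the fewest reads behind a value were 14. The cause of the moves in FTC-133 was not tested.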
